A study of Homo sapiens with 8 samples.

Results

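The regions described here are places in the human genome where Cufflinks, a program that joins aligned reads into transcripts, built an unspliced transcript outside every gene of the deposited reference annotation. A transcript was a member if it had 1 exon, a length of at least 300 nt and a place on chromosomes 1 to 22 or X, and if it overlapped no reference transcript on either strand. The 8 libraries held 6882 such transcripts, which is 8.60% of the 80049 unspliced transcripts of any length that were assembled outside genes. Overlapping members were merged into 3741 regions, which covered 1.9964 Mb of hg19. The members were selected on their assembled length, exon number and position, so these values, and a library in which a region is found, are given as a description.

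The libraries were made from total RNA of K562, an erythroleukaemia cell line, after ribosomal RNA had been removed with RNase H. The cells carried a transgene for SF3B1, a core protein of the U2 spliceosome complex, that doxycycline switches on. One line expressed the wild-type protein (WT) and the other the K700E form, a change recurrent in myelodysplastic syndrome. Each line was kept without doxycycline (K700E_uninduced, WT_uninduced) or with 1 ug/ml for 48 h (K700E_induced, WT_induced), with 2 libraries in each of the 4 groups, all in RPMI-1640 with 10% serum. Nothing in the labels says that the libraries of a group came from separate cultures, so p-values measure only the spread between these libraries. Both lines keep the endogenous SF3B1 gene, and the labels do not say whether a line is 1 clone.

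Levels are FPKM, fragments per kilobase of transcript, scaled to the mapped fragments of the library. For a region, the FPKM of its members in a library were weighted by their length and divided by the length of the whole region. SF3B1 itself stood at 27.3 to 39.5 FPKM in the 4 libraries with doxycycline and 30.4 to 37.7 in the 4 without, so its total level did not separate the induced libraries. All 10 K562 genes checked, among them GATA1 (212 to 303 FPKM) and the fetal globin gene HBG1 (1030 to 3271 FPKM), were above 1 FPKM in every library. The lymphoid gene MS4A1 and the monocyte gene CD14 were at 0 in all 8, while the keratin gene KRT8 stood at 220 to 629. The number of mapped reads is unknown. The median ratio of deposited coverage to FPKM in a library ranged from 3.35 to 4.88.

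An RNA outside annotated genes can have several known sources. Polymerase II transcribes past the site where a messenger RNA is cut, and a gene that uses a more distant cleavage site has a longer 3′ untranslated region than a short annotation draws. Active promoters often start a second, short-lived RNA on the opposite strand, and long noncoding RNAs and the primary transcripts of microRNAs may be missing from an annotation of protein-coding genes. A library that is not selected for poly(A) tails can hold all of these, together with abundant small RNAs such as 7SL.

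The 2 regions with the highest level were the 7SL RNA genes on chromosome 14. 7SL is the RNA of the signal recognition particle, which brings ribosomes to the endoplasmic reticulum. No reference transcript of the deposited files covered them, and RefSeq's current gene order places RN7SL1 and RN7SL2 there. The 2 genes are near-identical copies, so reads from one may have been placed on the other.

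In GENCODE 29 the 7SL genes are 299 and 300 nt long, and the assembled transcripts fell on both sides of the 300 nt minimum. At RN7SL1 (chr14:50053299-50053599, plus strand) a transcript was assembled in all 8 libraries at 123512 to 159365 FPKM and 277 to 300 nt, and 2 libraries passed the minimum. At RN7SL2 (chr14:50329266-50329568, minus strand) all 8 libraries held a transcript at 95269 to 131998 FPKM and 294 to 301 nt, and 4 passed. Presence under the rule therefore did not track the level of these RNAs. No other region exceeded 672 FPKM in a library.

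Close to the minimum, 409 unspliced transcripts outside genes measured 290 to 299 nt, with a median of 75.2 FPKM, and 440 measured 300 to 309 nt, with a median of 72.8. Below it, the deposited FPKM rose steeply as transcripts became shorter. The median was 34.3 FPKM at 400 to 499 nt, 58.8 at 300 to 349 nt, 112 at 250 to 299 nt, 308 at 200 to 249 nt and 1218 at 150 to 199 nt. Among the members alone, Spearman's rho between length and FPKM ran from -0.355 to -0.278 over the 8 libraries. An order of levels between regions of different length, where one is given below, is therefore a description that moves with length.

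**Figure D1:**
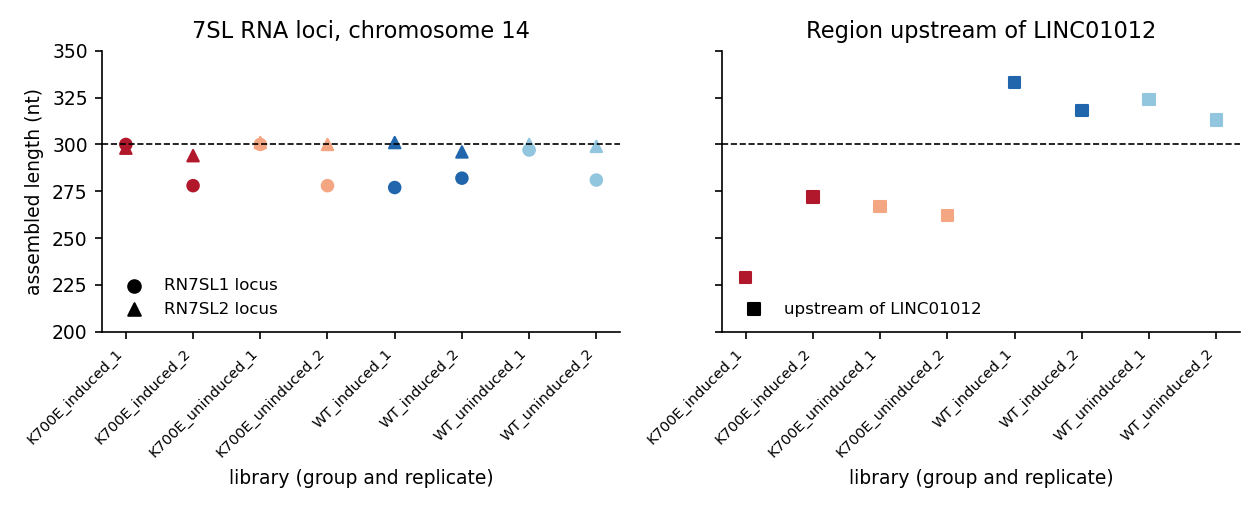
Length in nt (y axis) of the assembled transcript in each of the 8 libraries (x axis) at the 2 7SL loci (left) and at a region upstream of LINC01012 (right), coloured by group, with the minimum of 300 nt as a dashed line. The 7SL transcripts lie within 277 to 301 nt on both sides of the line, and at the LINC01012 region the 4 WT libraries lie above it and the 4 K700E libraries below.

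The median region was 407 nt long, and 252 regions (6.74%) were longer than 1 kb. The plus strand held 1837 and the minus strand 1843, while 61 joined transcripts of both strands or of no stated strand. The number of members per library ran from 494 in WT_uninduced replicate 2 to 1325 in K700E_uninduced replicate 1. It was 524 and 914 in K700E_induced, 1325 and 782 in K700E_uninduced, 1135 and 733 in WT_induced, and 975 and 494 in WT_uninduced. Every pair of groups overlapped.

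Regions were concentrated beside genes, above all behind their 3′ ends. Within 5 kb of a gene boundary lay 2057 regions (55.0%), in 8.64% of the intergenic bases of hg19. The nearest boundary was a 3′ end within 5 kb for 1485 regions (39.7%) and a 5′ end for 572 (15.3%), although the 2 classes of sequence are of nearly equal size (73.8 and 75.8 Mb). Per Mb of intergenic sequence there were 36.7 regions within 1 kb of a 3′ end and 15.8 within 1 kb of a 5′ end, 14.8 and 5.05 at 1 to 5 kb, 2.97 and 1.66 at 5 to 20 kb, and 0.903 and 1.06 at 20 to 100 kb. More than 100 kb from any gene lay 579 regions (15.5%), in 46.7% of the intergenic bases.

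Strand followed the side of the gene. Behind a 3′ end, 88.6% of the regions within 1 kb and 88.8% of those at 1 to 5 kb ran on the strand of the gene, and the share fell to 75.5% at 5 to 20 kb and 57.9% at 20 to 100 kb and was 61.6% beyond 100 kb. In front of a 5′ end, 41.5% within 1 kb and 39.2% at 1 to 5 kb were on the gene's strand, so that most ran in the opposite direction.

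**Figure D2:**
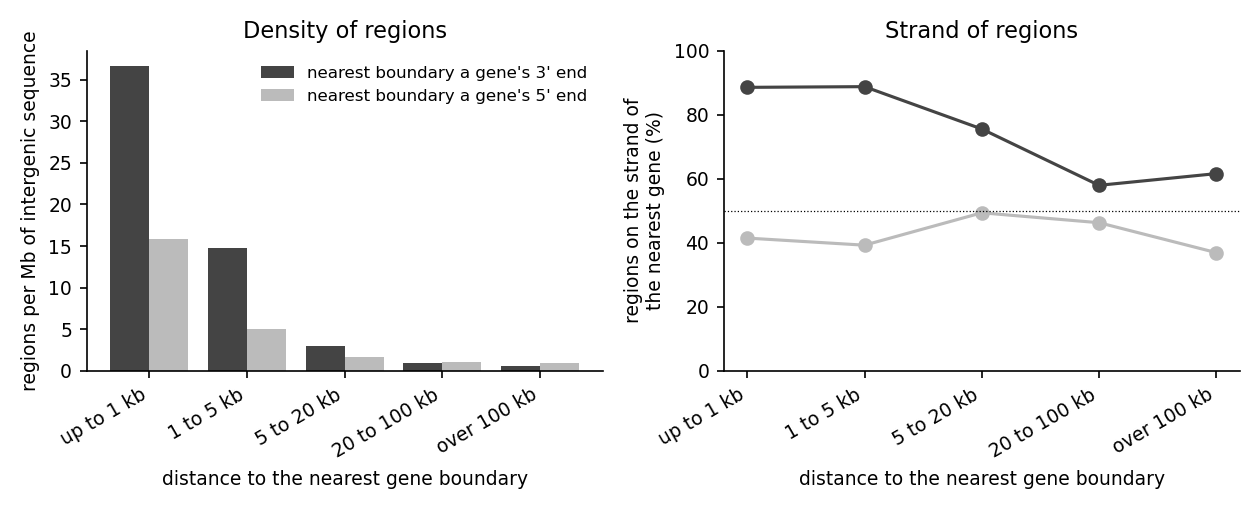
Left, regions per Mb of intergenic sequence by distance to the nearest gene boundary, with dark bars where that boundary is a 3′ end and light bars where it is a 5′ end. Right, percent of the regions on the strand of the nearest gene in the same classes, with a dotted line at equal shares; density falls with distance on both sides, and same-strand regions make up 88.6% and 88.8% of those within 5 kb of a 3′ end.

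The strand pattern held in each library. Over the 8 libraries, 88.4% ± 1.21 (SD, n = 8) of the members within 5 kb of a 3′ end were on the gene's strand, against 42.5% ± 5.93 (SD, n = 8) within 5 kb of a 5′ end. The mean difference was 45.9 percentage points and was positive in 8 of 8 libraries (exact two-sided permutation test by sign flips over libraries, p = 0.00781, the smallest it can give). This test was added after the shares had been seen. The lowest 3′ share was 86.5% in K700E_induced replicate 1 and the highest 5′ share 52.9% in WT_uninduced replicate 2, so the ranges do not overlap.

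**Figure D3:**
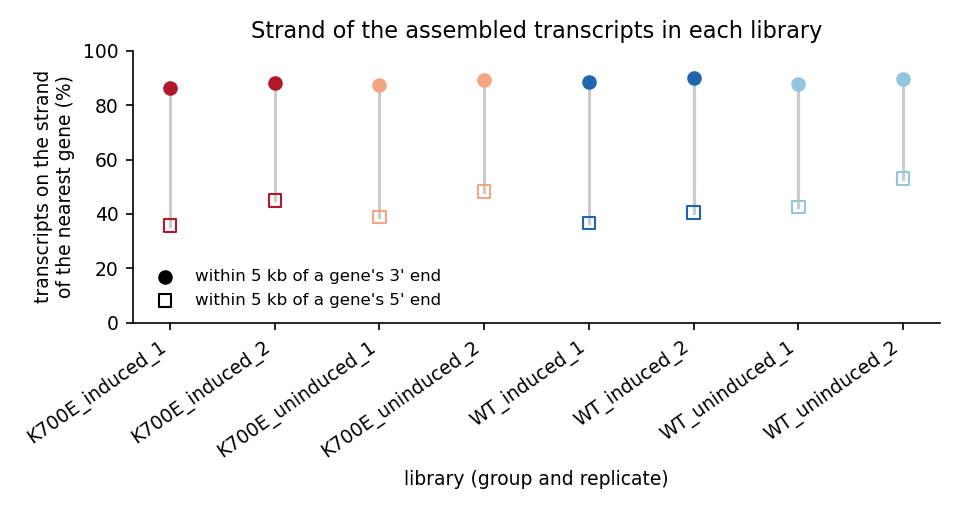
Percent of member transcripts on the strand of the nearest gene (y axis) in each library (x axis), for transcripts within 5 kb of a 3′ end (filled circles) and of a 5′ end (open squares), coloured by group. The circles lie between 86.5% and 90.1% in all 8 libraries and the squares between 35.7% and 52.9%.

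No measure of the whole set passed the adjusted threshold between groups, which 1 comparison alone could not have done here. The share of members nearest to a 3′ end within 5 kb was 48.2% ± 0.479 (SD, n = 2) in K700E_induced, 46.5% ± 1.04 in K700E_uninduced, 45.9% ± 3.21 in WT_induced and 48.6% ± 9.49 in WT_uninduced. Its difference between the libraries with and without doxycycline was -0.471 percentage points (exact two-sided permutation test, p = 0.914, adjusted p = 0.971). Between the K700E and WT lines it was 0.156 points (exact permutation p = 0.971, adjusted p = 0.971). The number of members averaged 827 with and 894 without doxycycline (exact permutation p = 0.714, adjusted p = 0.971), and 886 in the K700E line against 834 in the WT line (exact permutation p = 0.829, adjusted p = 0.971). Against the 6 other libraries, K700E_induced differed by -188 members (exact permutation p = 0.5, adjusted p = 0.971) and 1.26 percentage points (exact permutation p = 0.714, adjusted p = 0.971). These p-values were adjusted by Benjamini and Hochberg over 9 tests. The smallest p these designs can give is 0.0286 for 4 libraries against 4 and 0.0357 for 2 against 6. At a minimum length of 500 nt, 1 comparison had an exact permutation p of 0.0286, and its adjusted p was still 0.257. The lack of a pass therefore does not show that the groups are alike.

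The third measure, the sum of FPKM times length over the members relative to the same sum over all transcripts (in ppm), averaged 68.6 in the K700E line and 21.3 in the WT line. The exact permutation p was 0.0571 and the adjusted p 0.514. The difference of 47.3 fell to 8.72 without the 2 7SL regions and to 23.3 without K700E_uninduced replicate 1. It was 28.1 with doxycycline and 61.9 without (exact permutation p = 0.314, adjusted p = 0.971), a difference of -33.8 that was -5.31 without the 7SL regions and -7.46 without K700E_uninduced replicate 1, and for K700E_induced against the others 40.4 and 46.5 (exact permutation p = 0.929, adjusted p = 0.971). Transcripts shorter than 200 nt made up 99.7% to 99.9% of the total in each library, and whether a 7SL transcript reached 300 nt entered the numerator. Without the 2 7SL regions the values per library ran from 7.21 in WT_induced replicate 1 to 29.8 in K700E_uninduced replicate 1.

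The regions behind 3′ ends lay mostly beside genes with a measured level. Of the neighbouring genes, 94.2% were at 1 FPKM or more for regions found in 1 library, and all 26 were for those in all 8 libraries, beside 43.7% of all 23823 genes. Of the 10401 genes with a median of at least 1 FPKM, 773 (7.43%) had a region on their strand within 5 kb of the 3′ end, and the median level of all 10401 was 11.98 FPKM. The neighbouring genes of regions found in 1 library had a median of 12.1 FPKM, those of regions in 4 to 7 libraries 18.2 FPKM, and those of regions in all 8 libraries 33.2 FPKM. Across the 1293 regions, the level of region and gene showed a Spearman's rho of -0.0231, a description only, since regions behind 1 gene share it and region FPKM moves with length.

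Many of these regions lie in a last exon that a later annotation draws longer. The last exon of each gene was compared with GENCODE 29 by length only, where the last intron had the same length in both, so that no coordinate was carried between genome builds. Of 1293 regions, 1136 (87.9%) could be compared, and 579 of them (51.0%) lay wholly within the longer last exon, 28 began in it and 529 lay beyond. The share inside was 44.5% for regions in 1 library, 59.6% for 2 to 3, 67.8% for 4 to 7 and 69.2% for all 8. Among genes at 1 FPKM or more, 55.9% of those with such a region had a last exon at least 300 nt longer in GENCODE 29, and 11.3% of those without one. These shares are descriptions and were not tested.

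Most regions were found in 1 library. By the rule, 2687 regions (71.8%) came from 1 library, 511 from 2, 214 from 3, 118 from 4, 80 from 5, 57 from 6, 29 from 7 and 45 (1.20%) from all 8. The regions in more libraries were longer, with a median of 372 nt for those in 1 library and 2811 nt for those in all 8. A region is the union of its overlapping members, so each added library can only lengthen it, and this trend is in part built in by the merging. Where any assembled transcript of a library over the region was counted, 816 regions (21.8%) belonged to 1 library and 269 (7.19%) to all 8.

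**Figure D4:**
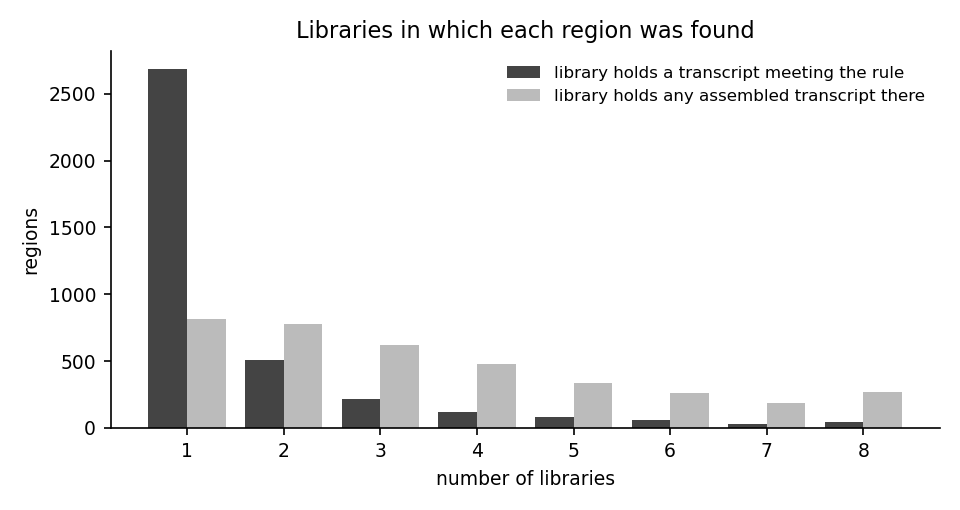
Number of regions (y axis) by the number of libraries in which they were found (x axis), counting a library only where a member transcript overlaps the region (dark) or where any assembled transcript of that library does (light). Regions of 1 library number 2687 by the rule and 816 when any assembled transcript counts.

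The share of regions that libraries had in common was similar within and between groups. The Jaccard index, the share of the regions of 2 libraries that both hold, averaged 0.139 over the 4 pairs of the same group (0.132 to 0.144). It averaged 0.145 over the 12 pairs with the same replicate number (0.131 to 0.159) and 0.143 over the 12 other pairs (0.123 to 0.162). As a share of the smaller library the pairs of the same group came first, at 34.1%. Pairs with the same replicate number followed at 32.6% and the other pairs at 32.1%. Neither difference was tested. Of the 511 regions found in exactly 2 libraries, 68 (13.3%) had both in 1 group, and 4 of the 28 possible pairs (14.3%) are of 1 group.

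Few regions marked a group. Both libraries of a group and no other held 9 regions in K700E_induced, 32 in K700E_uninduced, 18 in WT_induced and 9 in WT_uninduced, which is 5.66%, 13.4%, 9.28% and 5.84% of the regions found in both libraries of that group. The other libraries were seldom empty there. They held some assembled transcript at 9 of the 9, 29 of the 32, 17 of the 18 and 8 of the 9.

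The highest of these in K700E_induced was chr5:167981998-167982601, 27 nt behind PANK3, which makes a first enzyme of coenzyme A synthesis, at a mean of 59.2 FPKM. In K700E_uninduced it was chr2:152334122-152334462, 262 nt behind RIF1, a factor of replication timing and double-strand break repair, at 89.7 FPKM. In WT_induced chr13:46531021-46531360, 4954 nt behind ZC3H13, a subunit of the m6A writer complex, stood at 83.9 FPKM. In WT_uninduced chr17:56168204-56168537, 586 nt behind the dynein light chain gene DYNLL2, averaged 149.2 FPKM, from 261 and 37.1 in its libraries. At all 4 places other groups also held assembled transcripts.

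The 45 regions found in all 8 libraries had a median length of 2811 nt and lay mostly close to 3′ ends. They measured 687 to 7341 nt, the nearest boundary was a 3′ end for 41 and a 5′ end for 4, and 23 lay within 1 kb of it. Of the 29 within 5 kb of a 3′ end with a single strand, 27 ran on the strand of the gene. The level of a region varied between libraries by a median of 5.14 times from the lowest to the highest, with a range of 1.75 to 46.5 times.

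The longest region, chr6:34247461-34254801 on the minus strand, began 172 nt behind NUDT3, which codes for a diphosphoinositol polyphosphate phosphohydrolase. It stood at 69.1 and 31.3 FPKM in K700E_induced, 50.9 and 50.7 in K700E_uninduced, 31.6 and 47.0 in WT_induced, and 39.0 and 71.6 in WT_uninduced. The groups overlapped, except that both K700E_uninduced libraries lay above both of WT_induced. It ended 7512 nt behind the reference end, and GENCODE 29 draws the last exon 7517 nt longer. NUDT3 itself had a median of 64.9 FPKM, with 0 in its lowest library.

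Other regions behind genes had the same form. That of RNF24, a membrane RING finger protein, began 2 nt behind the gene (chr20:3907967-3912067) and stood at 65.8 and 21.3 FPKM in K700E_induced, 36.7 and 18.9 in K700E_uninduced, 47.9 and 46.6 in WT_induced and 52.0 and 50.4 in WT_uninduced. It reached 4102 nt past the reference end, within the 4113 nt that GENCODE 29 adds. MOB1A, a Hippo pathway kinase activator, was followed 10 nt behind its end by chr2:74380050-74383201, at 22.8 to 51.3 FPKM over the 8 libraries. AGO2, the small-RNA-guided slicer, was followed by chr8:141537330-141541252 at 12 nt and chr8:141531204-141536062 at 5202 nt, at medians of 26.8 and 26.2 FPKM, and GENCODE 29 draws its last exon 11009 nt longer. MLXIP, a glucose-responsive transcription factor (chr12:122629032-122631870), had a region at a median of 44.4 FPKM, and ARID3A, an AT-rich DNA-binding protein (chr19:973835-975917), one at 56.0. SPC24, a kinetochore subunit, had one (chr19:11256168-11257129) at a median of 44.7, which ranged from 4.87 to 80.7 FPKM. Of the 26 such regions in all 8 libraries that could be compared, 18 lay inside the longer last exon and 3 began in it.

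A second kind lay far from any reference gene. The highest level among the 45 was at chr18:8913983-8914669, 81208 nt behind SOGA2, with a median of 106 FPKM and a range of 53.5 to 265. A second region on the same strand, chr18:8916746-8921846, stood at a median of 69.97 FPKM (36.2 to 134), and RefSeq's current gene order lists a noncoding RNA and a ribosomal protein pseudogene between the flanking genes SOGA2 and NDUFV2. The region chr19:29097622-29101107, 354931 nt from LOC148145, stood at 23.3 to 90.1 FPKM. On chromosome 11, chr11:12981684-12984314 ran opposite to TEAD1, 15400 nt behind it, at 21.1 to 36.9 FPKM, while TEAD1, a Hippo pathway transcription factor, had a median of 3.35 FPKM. Between CALML5 and NET1, chr10:5525234-5528684 stood at 16.6 to 40.5 FPKM with CALML5 at 0, and chr19:52053129-52054771, 18019 nt from SIGLEC6, at 4.05 to 44.6.

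The remaining named regions were the longest after NUDT3 and 3 of high level. chr3:101355372-101361605 (6234 nt), in the opposite direction to ZBTB11, stood at a median of 23.3 FPKM. chr8:28916283-28921179 (4897 nt), between HMBOX1 and KIF13B, was at 21.7. chr15:41594420-41598732 (4313 nt), behind the noncoding RNA OIP5-AS1, was at 17.2, and the longest transcript of that gene has 8829 nt in GENCODE 29 and 1894 nt in the reference. chr2:158169330-158173470 (4141 nt), behind GALNT5, was at 14.1, and chr3:48784219-48787911 (3693 nt), behind PRKAR2A, a regulatory subunit of protein kinase A, at 19.97. chr9:127279573-127282089, behind NR6A1, held transcripts of both strands at a median of 33.4, and chr6:27090264-27091787, 8308 nt behind HIST1H2BJ, stood at 27.6. chr21:9826663-9827799, on the short arm beside MIR3687, stood at a median of 69.8 FPKM (16.6 to 99.9), also with both strands.

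**Figure D5:**
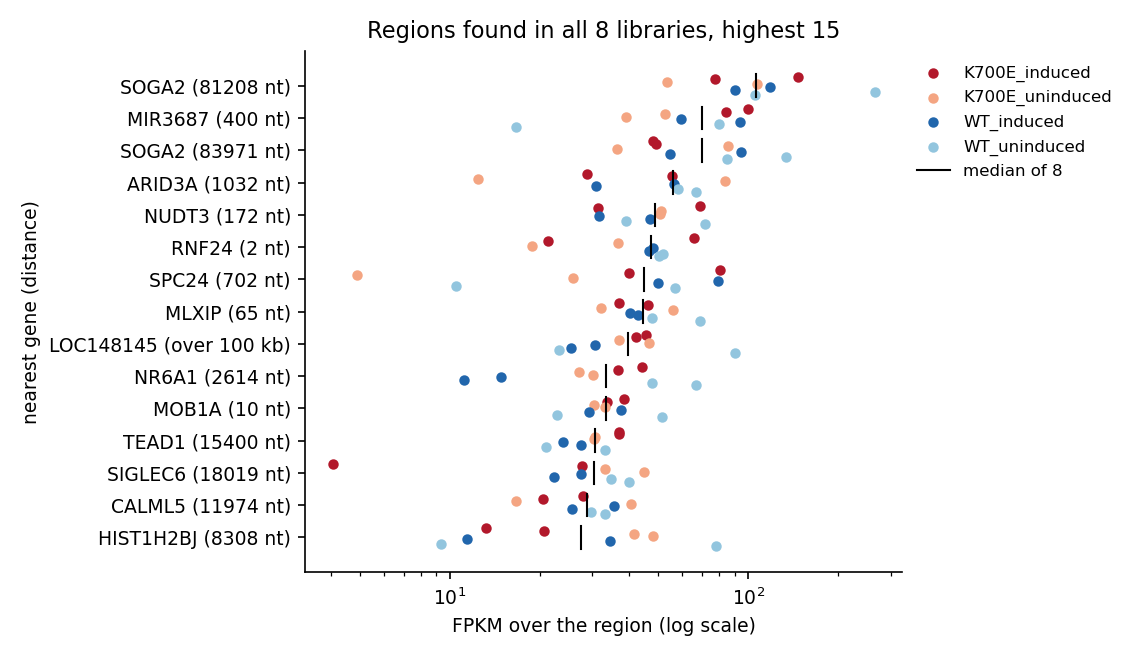
FPKM over the region (x axis, log scale) in each of the 8 libraries for the 15 regions with the highest median among the 45 found in all libraries (y axis, nearest gene and distance in nt), coloured by group, with a black bar at the median of 8. The medians run from 27.6 to 106 FPKM, and in the row of NR6A1 both WT_induced libraries lie lowest.

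The regions often came in chains, in which neighbours on 1 strand were at most 1 kb apart. There were 579 chains of 2 or more regions, which held 1523 regions (40.7%). The longest spanned 17153 nt with 10 regions, behind NEAT1, the noncoding RNA scaffold of nuclear paraspeckles. Counted with 1 more region behind MIR612, 11 regions covered 15954 nt, from 390 to 18799 nt behind the reference end of NEAT1. Only 2 of the 11 were found in all 8 libraries, and the lowest number was 1. The last one ended 22534 nt from the start of NEAT1, and the longest NEAT1 transcript has 22743 nt in GENCODE 29 and 3735 nt in the reference. The first region, chr11:65194393-65196231, stood at 3.64 and 17.4 FPKM in K700E_induced, 11.8 and 39.2 in K700E_uninduced, 19.4 and 48.9 in WT_induced and 22.6 and 6.69 in WT_uninduced.

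MicroRNA genes had regions on their own strand that may be read beside the mature sequence they surround. Within 1 kb of a miRNA gene lay 21 regions near 17 genes, 19 of them on the strand of the gene, and 11 were found in 1 library. MIR223, known for its part in myeloid differentiation, and MIR21 are shown because regions lie directly beside their hairpins. The sequences are from RefSeq (GRCh38.p14), with the seed, bases 2 to 8, in capitals.
hsa-miR-223-3p: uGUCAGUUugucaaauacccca
hsa-miR-223-5p: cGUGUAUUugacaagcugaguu
hsa-miR-21-5p: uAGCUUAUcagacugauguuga

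The MIR223 gene lay between 2 regions on its strand. The region in front, chrX:65235320-65238697, ended 15 nt before the hairpin and was found in all 8 libraries, at 8.25 and 33.0 FPKM in K700E_induced, 27.4 and 32.6 in K700E_uninduced, 4.55 and 34.2 in WT_induced and 26.8 and 16.6 in WT_uninduced. The groups overlapped, except that both K700E_uninduced libraries lay above both of WT_uninduced. The region behind, chrX:65238878-65240284, began 57 nt after the hairpin and was found in 6 libraries, at 44.5 and 26.6 FPKM in K700E_uninduced, 33.8 and 55.1 in WT_induced, 36.6 and 69.3 in WT_uninduced and 0 in both of K700E_induced. Behind MIR21, chr17:57918709-57919157 began 11 nt after the hairpin and was found in 3 libraries, at 32.7, 74.2 and 13.8 FPKM.

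In front of genes, 275 regions with a single strand lay within 1 kb of a 5′ end, and 161 of them (58.5%) ran in the opposite direction. The RN7SL1 region, 205 nt in front of RPS29, is among the 161. The region in front of INSIG1, an inhibitor of sterol-regulated SREBP processing, ran opposite to it 292 nt upstream (chr7:155087991-155089194) and was found in 6 libraries. The region in front of ABL1, the tyrosine kinase fused to BCR in K562, ran in the same direction 127 nt upstream (chr9:133588591-133589141) and was found in 5. A promoter window of each gene is shown because CpG-rich promoters are known to start RNA in both directions. The windows run from 250 bases before to 50 after the gene's start in RefSeq (GRCh38.p14, plus strand, chr7:155297628-155297927 and chr9:130835004-130835303), with every CG in capitals. No coordinate was carried over from hg19, so a window may surround another start of its gene than the one beside the region. Neither is given as the promoter next to that region.
INSIG1: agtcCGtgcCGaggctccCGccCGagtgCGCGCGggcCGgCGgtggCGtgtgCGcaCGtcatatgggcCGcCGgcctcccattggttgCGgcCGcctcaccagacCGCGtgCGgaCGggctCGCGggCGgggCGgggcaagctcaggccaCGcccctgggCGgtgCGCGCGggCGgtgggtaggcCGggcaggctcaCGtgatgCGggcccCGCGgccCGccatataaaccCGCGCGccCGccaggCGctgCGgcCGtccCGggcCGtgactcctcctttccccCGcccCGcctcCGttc
ABL1: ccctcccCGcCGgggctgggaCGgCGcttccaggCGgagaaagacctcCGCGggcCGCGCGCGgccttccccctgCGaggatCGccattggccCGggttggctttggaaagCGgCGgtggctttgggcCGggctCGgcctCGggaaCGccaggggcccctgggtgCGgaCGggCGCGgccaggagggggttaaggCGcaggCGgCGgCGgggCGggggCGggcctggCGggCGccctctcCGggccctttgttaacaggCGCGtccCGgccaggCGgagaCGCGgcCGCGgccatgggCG

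The INSIG1 window holds 48 CG and the ABL1 window 42. The genes with an opposite-strand region within 1 kb, 130 of 154 of which matched the promoter table, had a median of 31 CG, and 93.8% of them held at least 10. The genes with a same-strand region had a median of 23 (71 of 109 matched), all genes at 1 FPKM or more a median of 27 (91.7% with at least 10), and all 27305 promoters of the table a median of 14 (56.0% with at least 10). The count of CG is the same on both strands. The opposite-strand set thus lay near the value of expressed genes.

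Of the 6 gene lists whose neighbourhood was counted, the replication-dependent histones had the highest share of genes with a region. Histone mRNAs end in a stem-loop in place of a poly(A) tail. Of 73 histone genes, 28 (38.4%) had a region within 5 kb, beside 11.1% of all genes at 1 FPKM or more, and 20 had one on their strand behind the 3′ end. The 48 regions were found in few libraries. One library held 28 of them, and only the region 571 nt behind H3C4 reached 4. The 73 histone genes of the list had a median of 241 FPKM. The histone genes sit in dense clusters, so that a region within 5 kb of one is often near several, which was not allowed for.

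Of 87 genes of the ribosomal protein list, with a median of 771 FPKM, 13 (14.9%) had a region within 5 kb and 9 had one on their strand behind the end. RPS29 counts among the 13 only through the RN7SL1 region, 205 nt in front of it on the opposite strand. The most widely shared were those behind RPL7L1, a ribosome assembly factor, in 6 libraries each, and behind RPS19, in 5. Of 22 globin and erythroid genes, 3 had regions (HBG1, TAL1 and NFE2), each found in 1 or 2 libraries. Of 15 heat shock chaperone genes only DNAJA1 had one. None of the 13 genes of the U2 complex, SF3B1 included, had a region within 5 kb. Of the 1700 small RNA genes, 27 (1.59%) had one, and 20 of the 1700 were at 1 FPKM or more.

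The comparisons between groups were fitted with limma over 11453 genes and 3660 regions together, with p-values adjusted over all 15113. For doxycycline in the K700E line 1 region was called, beside 0.0199% of all features, and in the WT line 1, beside 0.0265%. Between the K700E and WT lines 2 regions were called with doxycycline, beside 0.0397%, and 2 without it, beside 0.0265%. The interaction, the difference between the lines in their response, was past the threshold for 4 regions, beside 0.0463%. At an unadjusted p under 0.05, 106, 85, 98, 116 and 118 regions passed in that order, which is 2.90%, 2.32%, 2.68%, 3.17% and 3.22% of the regions, beside 3.87%, 3.51%, 4.13%, 3.87% and 3.70% of all features. The comparisons share libraries, so a region in 2 of them is not found independently. The value of a region is 0 wherever no transcript of a library meets the rule, so these calls compare membership, which the rule sets, and are given as a description of the values below.

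The 7 regions behind these 10 calls were each listed at 0 in both libraries of at least 1 group, so no fold is given. The region behind MIR223 was at 0 in both K700E_induced libraries and was called against K700E_uninduced and against WT_induced. A region 55 nt behind LOC541471, chr2:112123460-112124536, was at 0 in both WT_uninduced libraries and at 33.9 and 30.3 FPKM in WT_induced, 42.1 and 27.6 in K700E_induced and 22.4 and 53.0 in K700E_uninduced. It was called in both comparisons with WT_uninduced.

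The region chr6:27655971-27656303, 5511 nt upstream of LINC01012, was at 0 in all 4 K700E libraries, and at 237 and 204 FPKM in WT_induced and 106 and 264 in WT_uninduced. It was called between the lines with and without doxycycline. The K700E libraries nevertheless held a transcript there. It measured 229 and 272 nt in K700E_induced and 267 and 262 nt in K700E_uninduced, at 297 to 710 FPKM, and 313 to 333 nt in the 4 WT libraries. Counting these, the log2 difference between the lines was 0.08 with doxycycline and 1.44 without, and neither passed (limma adjusted p = 1.0 and 0.94).

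The same held widely for the values of 0. Over the 7 regions, 24 library values were 0, and in 19 of them another assembled transcript, too short, spliced or reaching into a gene, overlapped the region. Behind MIR223, both K700E_induced libraries held such transcripts. Replicate 2 had one of 1091 nt at 42.0 FPKM that runs through the MIR223 gene and so is outside the rule, and replicate 1 had 3 pieces of 208 to 243 nt, 2 of them on the opposite strand. When all unspliced assembled transcripts over a region were counted, none of the 10 calls remained, with limma adjusted p of 0.364 to 1. Without K700E_induced replicate 2, no region passed in any of the 5 comparisons, and each comparison fell to 0 without at least 1 other library. Where the library left out belonged to a compared group, that group kept 1 library. The number of calls then rose for some libraries left out and fell to 0 for others, so those counts are not given.

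The 4 regions of the interaction were each present in 2 groups and at 0 in the remaining groups. A region 13388 nt behind HIST1H2AC (chr6:26138306-26139153) stood at 66.3 and 49.7 FPKM in K700E_induced and 42.5 and 16.4 in WT_uninduced. One 584 nt behind SLK, a Ste20-like kinase (chr10:105787926-105788677), stood at 28.6 and 18.9 in K700E_induced and 36.5 and 47.0 in WT_uninduced. One in front of NADSYN1 (chr11:71162734-71163150) stood at 96.6 and 31.7 in K700E_induced and 16.6 and 113 in WT_uninduced. The fourth, 961 nt from SLC18A2 (chr10:119039902-119040665), was present in the remaining groups, at 14.005 and 24.4 in K700E_uninduced and 38.5 and 54.1 in WT_induced.

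None of the 45 regions found in all 8 libraries passed the limma threshold in any of the 5 comparisons, and the smallest adjusted p was 0.415. At an unadjusted p under 0.05 there were 2 for doxycycline in the K700E line, 2 in the WT line, 6 for K700E against WT with doxycycline, 4 for the same without it, and 2 for the interaction. That is 4.44%, 4.44%, 13.3%, 8.89% and 4.44% of the 45, beside 3.87%, 3.51%, 4.13%, 3.87% and 3.70% of all features. Their median log2 difference ran from -0.17 to -0.03 over the 5 comparisons. The smallest unadjusted p was at the NR6A1 region of both strands, whose log2(FPKM + 0.5) was lower by 2.10 (SE 0.382) with doxycycline in the WT line.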

How the data were processed

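The authors deposited 1 Cufflinks transcript file per library, with FPKM for reference and assembled transcripts in hg19; the submitters' processing notes name CASAVA, TopHat and Cufflinks, with versions and settings not given in the sources used here. From these, members were selected and merged where they overlapped by at least 1 nt. Gene levels were summed over transcripts. Values were divided by median ratios of genes at 1 FPKM or more in every library and tested as log2(FPKM + 0.5). A fold on this scale understates low features. Features with a mean of at least 1 FPKM were fitted with limma 3.58.1 (trend, Benjamini-Hochberg, threshold 0.05) in R 4.3.3, on all 8 libraries. The fit was tried on simulated normal values without the zeros that the rule sets, so that trial cannot speak to region values with such zeros. Other values came from Python 3.11.15. Members and lists were chosen with earlier results of these data known. Regions were named by level or length among those in all 8 libraries, by a limma call, or as the highest of a group's own; the choice of any other name followed its values. No hg19 genome was used, so region sequences are not printed. Alternatives are in the closing section.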

Additional observations from a re-analysis of the deposited data

Results flagged for a closer look

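At 4 regions limma's interaction test on the values of the rule passed the threshold for the difference between the K700E and WT lines in their response to doxycycline. The adjusted p was 0.01815 for the region behind HIST1H2AC, 0.01815 for that behind SLK, 0.02228 for that near SLC18A2 and 0.04321 for that near NADSYN1. Each was at 0 in 4 libraries, and other assembled transcripts overlapped 2, 4, 3 and 3 of those 4 in this order. With all unspliced assembled transcripts counted none passed (limma adjusted p of 0.364 to 0.996) and SLK and NADSYN1 changed sign, so a difference in response is not shown. With the replicate block, the adjusted p was 0.04883 at HIST1H2AC, 0.06206 at SLK, 0.06489 at SLC18A2 and 0.09992 at NADSYN1.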

How the results depend on the processing

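The strand difference of 45.9 points ran from 45.02 to 47.2 points when each library was left out. Raising the minimum length to 500 nt left 869 regions and 14 in all 8 libraries, with 47.9862% behind a 3′ end and 60.0690% near any boundary within 5 kb and Jaccard indices of 0.1664 (same group) and 0.1770 (different groups); it also turned the doxycycline difference in the 3′ share to 1.6668 points and the K700E_induced difference in summed FPKM times length to 0.9472. At that length the difference between the lines in the summed measure was 3.39 (exact permutation p = 0.0286, the smallest possible, adjusted p = 0.257) and in the 3′ share 4.70 points (exact permutation p = 0.114, adjusted p = 0.514). At the main minimum length, the K700E_induced difference in summed FPKM times length against the 6 others was -6.1124. Without the 2 regions above 10000 FPKM this K700E_induced difference turned to 2.8626. Leaving out these regions was a choice made after the data were seen, as were all alternatives for the strand share. Merging across gaps of 100 nt gave a same-group Jaccard index of 0.1462. Counting any assembled transcript gave 269 regions in all 8 libraries and indices of 0.3664 and 0.3675.

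Calls over regions, 1, 1, 2, 2 and 4 in the order doxycycline in the K700E line, doxycycline in the WT line, lines with doxycycline, lines without it and interaction, depended on the settings. A pseudocount of 1 FPKM gave 0 for doxycycline in the WT line and 1 for the lines without it. No filter on low values gave 0, 0, 1, 0 and 0. The highest FPKM of a region gave 5 for doxycycline in the WT line, 5 for the lines with it and 6 for the lines without it. All unspliced assembled transcripts gave 6, 17, 6, 20 and 13, with log2 differences of 0.0782 and 1.4432 at LINC01012, -4.8648 at SLK and -1.3788 at NADSYN1, which changed sign. A fit to only the groups compared, which leaves out the interaction, gave 1, 0, 1 and 0 for the other comparisons in that order. The 1 for doxycycline in the K700E line was not the region called in the main fit. The replicate block gave 0, 0, 2, 1 and 1. Libraries of the same number also share a lane in the file names. Their deviations from the group means had correlations of -0.016 to 0.056, which cannot settle whether these libraries were handled together. Leaving out each library gave ranges of 0 to 622, 0 to 538, 0 to 538, 0 to 617 and 0 to 641; the high counts arise where a group keeps 1 library, whose own regions are then called, with its spread assumed to be that of the other groups.

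Without each library in turn, the number of members differed by -200.8333 to 76.1667 (doxycycline), -94.25 to 172.75 (lines) and -383.3333 to 6.6667 (K700E_induced), the 3′ share by -2.3672 to 2.1051 and -1.6353 to 2.837 points (doxycycline, lines), and the summed measure by -22.2613 to 12.7592 (K700E_induced). Depth is unknown, so a value of 0 does not show that an RNA was absent.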

Other observations

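Of the 118 regions found in exactly 4 libraries, 3 were in the 4 of the K700E line and 1 in the 4 of the WT line. The 4 libraries with doxycycline alone shared 1, and the 4 without it 0. Among the 8 libraries 70 sets of 4 are possible, so these few regions are not given as marks of a line or of doxycycline. In each of these 5 some assembled transcript overlapped the region in other libraries. The doxycycline one lay 226 nt behind INCENP, a chromosomal passenger protein (chr11:61920861-61921481), at 14.5 and 12.8 FPKM in K700E_induced and 8.45 and 32.2 in WT_induced. The 3 of the K700E line lay 498 nt in front of BCAN, 3972 nt behind GSTZ1, and 1392832 nt from CDC73. They were singled out after their values had been seen.

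Chromosome 21 had 89.9 regions per 100 genes at 1 FPKM or more, and every other chromosome 19.4 to 45.9. Per Mb of intergenic sequence it had 3.67, below chromosomes 19 (8.15), 22 (5.74) and 17 (4.97). Of its 89 regions, 27 lay before position 11185724, in the part that holds MIR3648 and MIR3687. A region 19 nt before MIR3648 reached 672 FPKM in K700E_uninduced replicate 2 and 267 in K700E_induced replicate 2 and was at 0 in the other 6 libraries. With any assembled transcript counted, 6 libraries held one over this region, so some of these zeros are set by the rule.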
